A study of Mus musculus with 18 samples.

Results

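The 37 genes of the mouse mitochondrial genome were followed in leukemia stem cells (LSCs), the leukemic cells held able to maintain the disease, from mice with and without a mutation of the chemokine gene Cxcl12. They were found as the rows of the count table whose ID maps to a symbol that starts with mt-, 37 of 54347 rows, and comprise 13 protein genes, 2 rRNA genes and 22 tRNA genes. Bone marrow LSCs of C57BL/6JRj mice were sorted 30 days after leukemia was induced, at 7000 cells per mouse. The groups were 5 mice with the genotype Prx1-Cxcl12-mutant (MUT, mice 6, 7, 8, 10 and 12) and 4 with Prx1-Cxcl12-wild type (WT, mice 1, 2, 3 and 4), and all carried the leukemia. Each mouse gave 2 technical libraries, 18 in all, by the bulk form of MARS-seq, which counts the 3′ ends of polyadenylated RNA. The sources used here do not give the alleles behind the genotype names, the leukemia driver, the sort markers, or the sex and age of the mice. Prx1 regulatory sequence is widely used to drive Cre in limb and bone mesenchyme, so the mutation would be expected in the surroundings of the leukemia and not in the sorted cells. The level of Cxcl12 in LSCs is therefore no check of the labels.

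Mitochondrial DNA is a small circle read by the polymerase Polrmt into long precursors from both strands, which are cut apart at the tRNAs between the genes. Its 13 proteins are all subunits of the respiratory chain or ATP synthase and are built on ribosomes that hold both of its rRNAs, whereas every other subunit is encoded in the nucleus and imported. Most mitochondrial mRNAs carry a short poly(A) tail, which in some genes also completes the stop codon. Fragments of mitochondrial DNA have also been inserted into nuclear chromosomes during evolution, and these copies can be nearly identical to the genes in the organelle.

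A nuclear copy of mt-Co1 held more counts than all 37 mitochondrial genes together. mt-Co1 encodes the catalytic core subunit of cytochrome c oxidase (complex IV) and lies on the mitochondrial genome (GRCm38) at chrM:5328-6872. The copy, Gm29216 (ENSMUSG00000101249), is an unprocessed pseudogene of 492 bases at chr1:24615706-24616197 on the minus strand. It matched the last 483 bases of mt-Co1 at 99.793% identity, with the single difference A1066T (mt-Co1 base, position counted from 1 at the start of the mt-Co1 coding sequence, copy base), and was identical over the last 479 bases. The sequences below are from the GENCODE transcripts (GRCm38), 5′ to 3′, and are shown because a read from the 3′ end would have the same letters in both. The first pair shows where the match begins. Capitals in the Gm29216 line mark its 9 bases outside the match and the differing base, and the capital in the mt-Co1 line marks the base it differs from.
mt-Co1 (chrM:6381-6440, plus strand): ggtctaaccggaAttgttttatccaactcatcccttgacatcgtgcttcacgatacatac
Gm29216 (chr1:24616138-24616197, minus strand): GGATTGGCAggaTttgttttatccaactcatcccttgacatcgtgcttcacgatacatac

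Over the last 60 bases mt-Co1 and Gm29216 have the same letters, and Gm13340, a full-length copy on chromosome 2 (97.605% identity, 37 differences), has 1 that differs. Another copy, Gm11512 on chromosome 11 (90.673% identity), stops 3 bases before the end of mt-Co1, had 4 counts in all and is not shown. The difference of Gm13340, T1506C, is in capitals.
mt-Co1 (chrM:6813-6872, plus strand): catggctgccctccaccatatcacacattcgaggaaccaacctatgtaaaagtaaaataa
Gm29216 (chr1:24615706-24615765, minus strand): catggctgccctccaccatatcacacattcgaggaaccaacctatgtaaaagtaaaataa
Gm13340 (chr2:22588103-22588162, minus strand): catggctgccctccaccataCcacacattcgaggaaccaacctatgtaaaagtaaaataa

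Gm29216 held 72698, 54701, 86136, 79275 and 60161 counts in MUT mice 6, 7, 8, 10 and 12, against 33233, 70851, 66575 and 55277 counts in WT mice 1 to 4. Its total of 578907 counts was 1.9354 times that of the 37 mitochondrial genes, and it ranked 50 in the whole table. Of the counts given to mt-Co1 and its copies, Gm29216 took 94.3% to 96.5% in MUT mice and 93.7% to 96.1% in WT mice. The mt-Co1 row took 3.26% to 5.43% in MUT mice and 3.69% to 5.99% in WT mice. Whether those counts came from the mitochondrial or the nuclear gene cannot be told apart in the table, so the level of the mt-Co1 row is uncertain by that margin. The values of mt-Co1 were not whole numbers in 18 of 18 libraries (tolerance 1e-06), as were those of Gm29216 and Gm13340. Such values arise where a read is divided between rows.

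**Figure D1:**
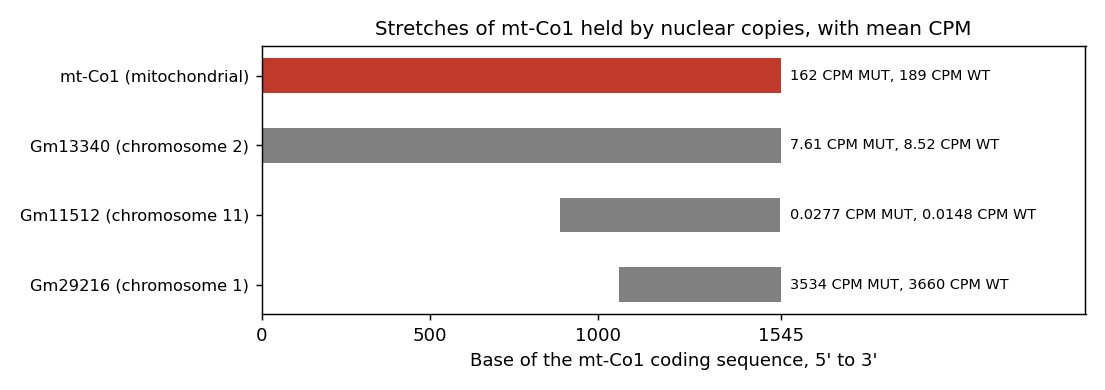
Bars show which bases of the mt-Co1 coding sequence (x axis, from 5′ to 3′) each nuclear copy matched, with the mean CPM of MUT and WT mice at the right. Gm29216 covers the last 483 of 1545 bases and has 3534 CPM in MUT mice and 3660 CPM in WT mice, against 162 and 189 CPM for mt-Co1.

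A search of all GENCODE transcripts found 20 nuclear copies of mitochondrial genes in the table, and 12 of them had a count of 0 in every library. Gm29216 held 99.761% of the counts of the 20 copies, and 3 copies had 10 or more counts in a mouse. These were Gm29216, Gm13340, which had 7.61 ± 2.02 CPM in MUT mice (SD, n = 5) and 8.52 ± 3.38 CPM in WT mice (n = 4), and Gm13341, a copy of mt-Co2 with a total of 91 counts. Gm29216 is the first of 7 neighbouring copies on chromosome 1, which follow the order mt-Co1, mt-Co2, mt-Atp6, mt-Co3, mt-Nd3, mt-Nd4l and mt-Nd4 over 24611535 to 24616197. The other 6 were at 0 in every library. Of these, Gm28661 (mt-Co2), Gm10925 (mt-Atp6), Gm28437 (mt-Co3), Gm10222 (mt-Nd4l) and Gm28439 (mt-Nd4) were identical to the gene they copy over the aligned bases. They stop 3, 3, 1, 3 and 502 bases before its 3′ end, whereas Gm29216 reaches the last base of mt-Co1. On other chromosomes, Gm13339, Gm13340, Gm13341 and Gm11408 also reach the last base of the gene they copy. They are identical to it over the last 4, 39, 63 and 6 bases and had 0, 1282, 91 and 0 counts. Whether the 3′ end of a copy bears on its counts was not tested.

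The mitochondrial genes took a small and variable share of each mouse's counts. In MUT mice 6, 7, 8, 10 and 12 the share was 0.169%, 0.0701%, 0.195%, 0.185% and 0.234%, against 0.174%, 0.263%, 0.243% and 0.161% in WT mice 1 to 4. MUT 7 was below every other mouse, and the other mice of both groups overlapped. The mean was 0.171% ± 0.0610 in MUT mice (SD, n = 5) and 0.210% ± 0.0501 in WT mice (n = 4), a difference of -0.0398 percentage points, which is smaller than the spread between mice of a group (pooled SD 0.0566). Without MUT 7 the difference was -0.0147 percentage points, without WT 2 it was -0.0223 and without WT 3 it was -0.0289. With the nuclear copies added, the share was 0.522% ± 0.135 in MUT mice and 0.578% ± 0.116 in WT mice. In bulk RNA, fewer cells of a type and less RNA per cell cannot be told apart.

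Protein genes made up nearly all of these counts, with 284341 of the total over the 9 mice, and rRNA genes had 14732. The 22 tRNA genes, whose products are normally not polyadenylated, had 42 counts over the 9 mice. 13 tRNA genes were at 0 in every library, the other 9 had 1 to 11 counts in total, and none was tested. The 2 rRNA genes and 12 of the 13 protein genes passed the low-count filter, which left 14 of 37 genes in the test. mt-Nd6, the complex I subunit gene that is alone among the protein genes on the minus strand, did not pass, with 7, 1, 5, 4 and 7 counts in MUT mice and 4, 8, 1 and 10 counts in WT mice. Its 3′ end overlaps that of mt-Nd5 on the other strand, and the sources used here do not give the strand setting of the counting, so its few counts cannot be told apart from antisense reads.

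Per kilobase of gene length, mean CPM over the 9 mice was highest for mt-Nd4 (345 CPM per kb), followed by mt-Co3 (285), mt-Co2 (261), mt-Atp6 (224), mt-Nd1 (209), mt-Cytb (203) and mt-Co1 (113). With its copies added, the mt-Co1 row would stand at 2442 CPM per kb, above every other member. In a 3′-end method the count does not grow with length, so the order per kb favours short genes. The pairs of protein genes that overlap by more than 1 base on the same strand differed widely within the pair. mt-Atp6 and mt-Co3, which share 1 base, were closer, at 224 and 285 CPM per kb. mt-Atp8 had 3.29 CPM per kb and mt-Atp6, which follows it and shares 43 bases with it, had 224. mt-Nd4l had 17.9 CPM per kb and mt-Nd4, which follows it and shares 7 bases, had 345. The 43 shared bases are shown because a read that lies within them would fit both genes. The values of mt-Atp8 were whole numbers in each of the 18 libraries, so no divided read was visible in its row. Capitals mark the start codon of mt-Atp6 and the stop codon of mt-Atp8.
mt-Atp8 and mt-Atp6 (chrM:7927-7969, plus strand): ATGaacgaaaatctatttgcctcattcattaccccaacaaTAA

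Of the 13 protein genes, 10 end in a full stop codon in the annotation and 3, mt-Co3, mt-Nd4 and mt-Cytb, end in a single T. In such genes the poly(A) tail, which the library method captures, supplies the remaining bases. The last 30 bases of these 3 genes are shown beside those of mt-Co2 and mt-Nd1, with the encoded part of the stop codon in capitals.
mt-Co3 (chrM:9361-9390, plus strand): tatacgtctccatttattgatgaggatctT
mt-Nd4 (chrM:11515-11544, plus strand): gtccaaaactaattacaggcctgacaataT
mt-Cytb (chrM:15259-15288, plus strand): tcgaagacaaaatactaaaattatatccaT
mt-Co2 (chrM:7667-7696, plus strand): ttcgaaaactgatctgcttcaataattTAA
mt-Nd1 (chrM:3678-3707, plus strand): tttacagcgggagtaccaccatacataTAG
The 3 genes with a single T ranked first, second and sixth of the 15 protein and rRNA genes per kb, and genes with a full stop codon stood between them. By mean CPM over all mice, not divided by length, the same 3 genes were the highest, with mt-Nd4 at 475, mt-Cytb at 232 and mt-Co3 at 224. The next were mt-Nd1 (200) and mt-Co2 (178), which end in a full stop codon. The mt-Co1 row, also with a full stop codon, had 174 CPM, and 3773 CPM with its nuclear copies added. Whether the stop codon bears on the level was not tested.

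Against WT, 13 of the 14 tested genes had a log2 fold change below 0 in MUT mice, and none was called. The test was edgeR's quasi-likelihood test on both libraries of a mouse summed, with Benjamini-Hochberg adjustment over 12973 genes and a call at an adjusted p under 0.05. By this rule 9 of the 12973 genes were called (0.0694%), 6 lower in MUT (0.0462%) and 3 higher (0.0231%). None of the 14 genes had an unadjusted p under 0.05, against 9.85% of all tested genes, nor in DESeq2 or limma-voom. In none of the 14 genes did all MUT mice lie below all WT mice (2.13% of tested genes) or above them (1.87%). The median log2 fold change of the 14 genes was -0.34, beside 0.0089 over all tested genes, of which 48.3% were below 0. The median was -0.16 without MUT 7, -0.17 without WT 2 and -0.20 without WT 3, with 11, 12 and 11 of 14 genes below 0. The p-values measure the spread between these mice, and nothing in the labels says whether mice of a group shared a donor leukemia or a day.

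**Figure D2:**
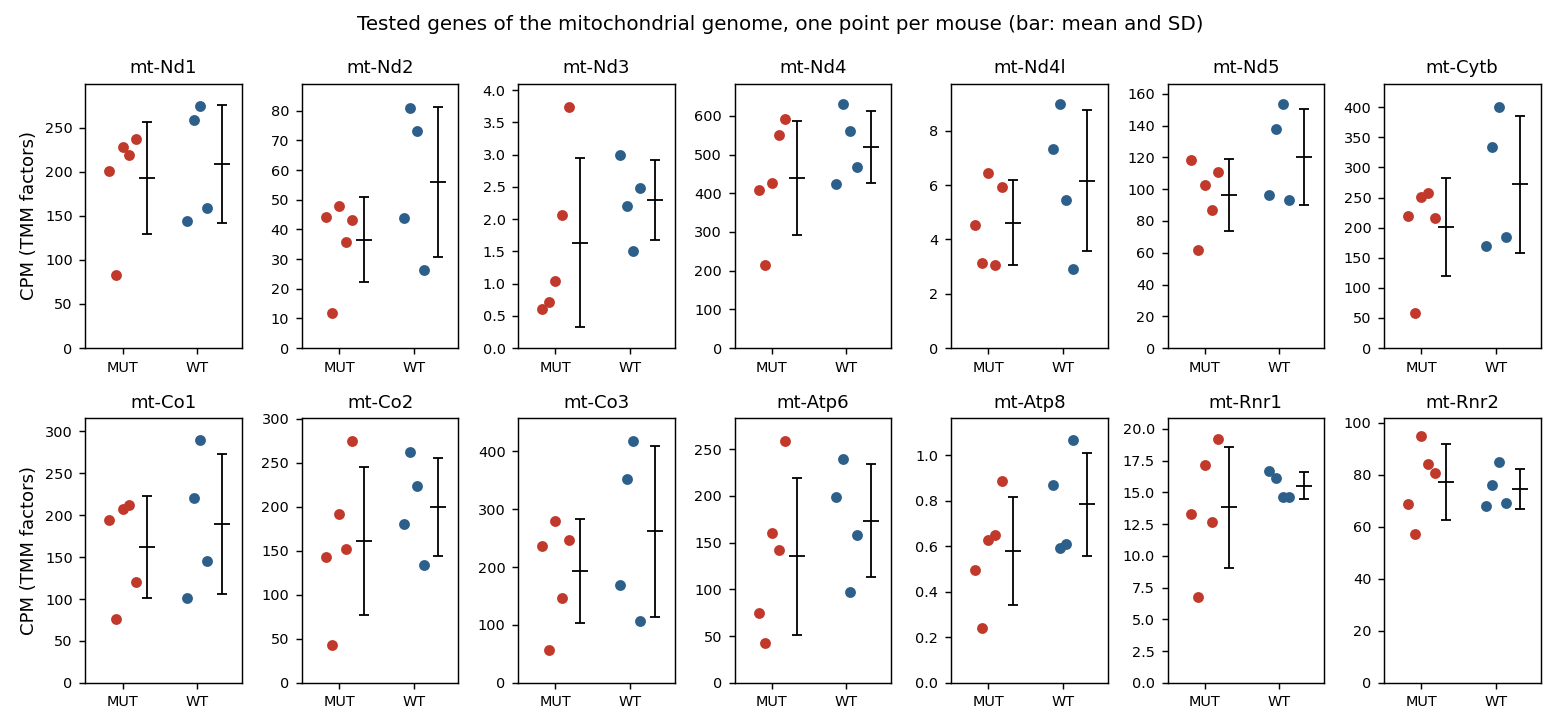
Each point is 1 mouse and gives the CPM of a gene (y axis, from 0, a scale per gene), with the mean and SD beside the points (MUT n = 5, WT n = 4). MUT 7 is the lowest MUT point in most panels, as for mt-Cytb at 58.5 CPM, and the groups overlap in all 14 genes.

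Complex I (NADH dehydrogenase), the entry point for electrons from NADH, has 7 mitochondrially encoded subunits, and the 6 that were tested lay between -0.62 and -0.11. mt-Nd4, a subunit of its proton-pumping membrane arm, held 25.1% of all mitochondrial counts. It had 407, 216, 427, 551 and 592 CPM in MUT mice 6, 7, 8, 10 and 12, against 423, 630.1, 560.3 and 468 CPM in WT mice 1 to 4. MUT 7 was the lowest mouse, MUT 6 lay just below the WT range and the other 3 MUT mice lay within it. The mean was 439 ± 147 CPM in MUT mice and 520 ± 92.9 CPM in WT mice (log2 fold change -0.25, SE 0.24, edgeR adjusted p = 0.758).

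mt-Nd2, another membrane arm subunit, had the lowest fold change of the 14 genes. Its values were 44.2, 11.9, 47.8, 35.9 and 43.1 CPM in MUT mice, against 43.8, 80.9, 73.0 and 26.4 CPM in WT mice. WT 2 and WT 3 stood above every MUT mouse, and WT 4 stood below 4 of the 5. The log2 fold change was -0.62 (SE 0.37, 95% interval -1.42 to 0.19, edgeR adjusted p = 0.598). mt-Nd5 had 118, 61.5, 103, 87.0 and 111 CPM in MUT mice and 96.6, 138, 154 and 93.1 CPM in WT mice, with a log2 fold change of -0.33 (SE 0.20, 95% interval -0.75 to 0.10). For mt-Nd1 the mean was 193 ± 63.5 CPM in MUT mice and 209 ± 66.8 CPM in WT mice (log2 fold change -0.11, SE 0.28). The 2 short genes were low: mt-Nd4l ranged from 3.04 to 6.43 CPM in MUT mice and from 2.90 to 8.97 CPM in WT mice (log2 fold change -0.42, SE 0.32), and mt-Nd3 from 0.606 to 3.74 CPM in MUT mice and from 1.498 to 3.001 CPM in WT mice (-0.51, SE 0.48).

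mt-Cytb encodes cytochrome b, the one mitochondrially encoded subunit of complex III, which passes electrons to cytochrome c. It had 219.7, 58.5, 251, 258 and 217 CPM in MUT mice, against 169, 334, 401 and 184 CPM in WT mice. Apart from MUT 7, the MUT mice lay close together and between the 2 lower and the 2 higher WT mice. The log2 fold change was -0.44 (SE 0.37, 95% interval -1.24 to 0.36, edgeR adjusted p = 0.717).

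The 3 mitochondrially encoded subunits of complex IV, which reduces oxygen to water, averaged 161 to 262 CPM per group and varied widely between mice of a group. mt-Co3 had 236, 57.0, 279.7, 147 and 247 CPM in MUT mice, against 169, 352, 417 and 108 CPM in WT mice, so that both groups held low and high mice (log2 fold change -0.44, SE 0.44, edgeR adjusted p = 0.775). mt-Co2, which holds the site that accepts electrons from cytochrome c, had 142, 43.4, 192, 152 and 275 CPM in MUT mice and 180.2, 263, 223 and 134 CPM in WT mice. Its highest and its lowest value were both in MUT mice (log2 fold change -0.32, SE 0.38). The mt-Co1 row had 195, 76.1, 207, 213 and 121 CPM in MUT mice and 101, 221, 289.9 and 145 CPM in WT mice (log2 fold change -0.22, SE 0.33, edgeR adjusted p = 0.849).

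With its nuclear copies added, mt-Co1 had 3704 ± 864 CPM in MUT mice and 3858 ± 957 CPM in WT mice. The log2 fold change was then -0.06 (SE 0.20, 95% interval -0.49 to 0.38, edgeR adjusted p = 0.941). Gm29216 alone had 3534 ± 809 CPM in MUT mice and 3660 ± 872 CPM in WT mice (-0.05, SE 0.20, edgeR adjusted p = 0.9503). Gm29216 held 2.32, 3.06, 1.78, 2.26 and 1.61 times the counts of the 37 genes in MUT mice and 1.62, 1.61, 1.75 and 2.09 times in WT mice. The highest ratio was in MUT 7 and the lowest in WT 2, with the groups overlapping.

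mt-Atp6 and mt-Atp8 encode parts of the proton channel side of ATP synthase. mt-Atp6 had 74.7, 42.2, 159.9, 142 and 259 CPM in MUT mice, against 198, 239, 97.6 and 158 CPM in WT mice. MUT 12 had the highest level of all mice, and the lowest WT mouse was WT 3, which was the highest of all for mt-Co3 and mt-Cytb. The log2 fold change was -0.36 (SE 0.42, edgeR adjusted p = 0.803). mt-Atp8 was under 1.1 CPM in each mouse, from 0.241 to 0.889 CPM in MUT mice and from 0.594 to 1.07 CPM in WT mice (log2 fold change -0.46, SE 0.39).

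Both rRNA genes had fold changes nearer to 0 than most of the protein genes. mt-Rnr2, the large-subunit rRNA, had 68.8, 57.1, 94.9, 84.2 and 80.8 CPM in MUT mice, against 68.0, 75.9, 84.9 and 69.1 CPM in WT mice. It was the one gene above 0 (log2 fold change 0.05, SE 0.14, 95% interval -0.25 to 0.35, edgeR adjusted p = 0.924). mt-Rnr1, the small-subunit rRNA, had 13.8 ± 4.78 CPM in MUT mice and 15.5 ± 1.04 CPM in WT mice (-0.17, SE 0.23). rRNA is not captured in proportion to its amount by a poly(A) method, so these levels do not measure mitochondrial ribosomes.

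As a share of the mitochondrial counts, complex I genes held 45.9% ± 4.36 in MUT mice and 44.0% ± 2.97 in WT mice, and complex IV genes 29.5% ± 3.95 in MUT mice and 30.04% ± 4.86 in WT mice. The mt-Cytb share was 11.3% ± 2.26 in MUT mice and 12.6% ± 2.13 in WT mice. ATP synthase genes had the widest relative range, from 4.36% to 11.7% in MUT mice and from 3.78% to 12.3% in WT mice. rRNA held 8.91% in MUT 7 and 4.52% to 5.56% in the other MUT mice, against 3.51% to 5.34% in WT mice. The groups overlapped in each of the 5 classes.

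**Figure D3:**
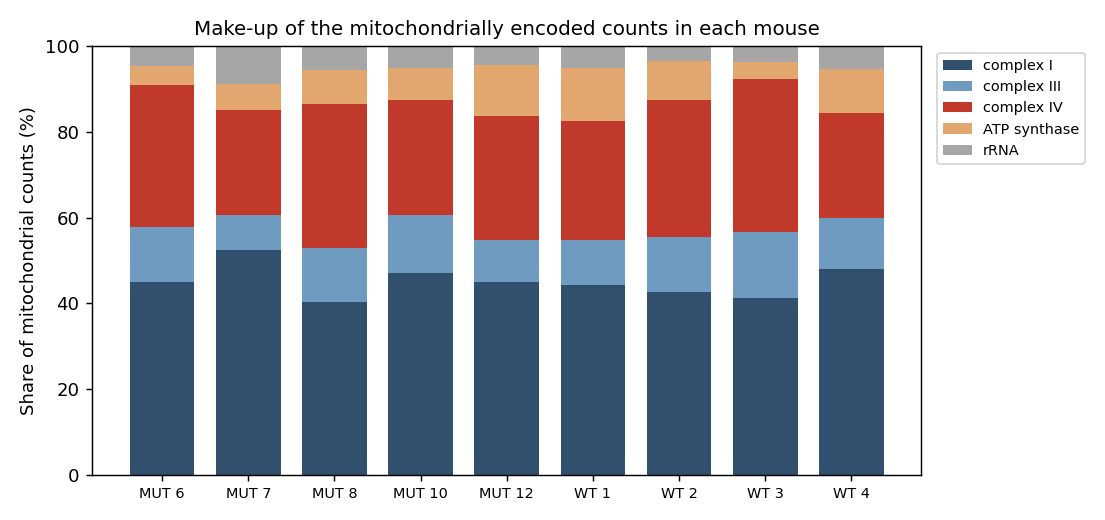
Each bar is 1 mouse and divides its mitochondrially encoded counts (y axis, percent) among the genes of complexes I, III and IV, ATP synthase and rRNA. MUT 7 has the largest complex I part (52.4%) and rRNA part (8.91%), and WT 3 the smallest ATP synthase part (3.78%).

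The 2 technical libraries of a mouse often disagreed on these genes. The share of mitochondrial counts in the first and second library was 0.166% and 0.171% in MUT 6, 0.0464% and 0.104% in MUT 7, 0.208% and 0.177% in MUT 8, 0.192% and 0.178% in MUT 10, and 0.269% and 0.209% in MUT 12. It was 0.109% and 0.206% in WT 1, 0.224% and 0.288% in WT 2, 0.228% and 0.256% in WT 3, and 0.120% and 0.206% in WT 4. The first library was the lower one in 2 of 5 MUT mice and in 4 of 4 WT mice. On the log2 scale the SD of the share between the libraries of a mouse was 0.42 and that between mice of a group was 0.56, beside a MUT minus WT difference of -0.38.

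**Figure D4:**
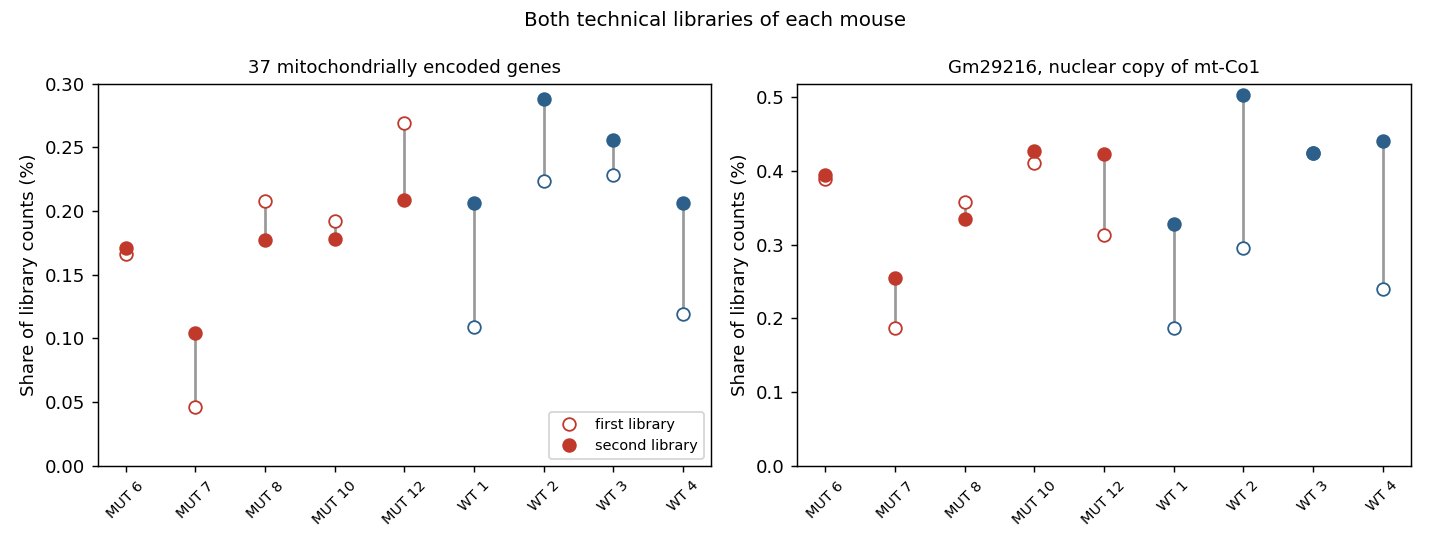
The share of a library's counts (y axis, percent) is drawn for the first (open) and second (filled) library of each mouse, for the 37 genes on the left and for Gm29216 on the right. In WT mice the first library is the lower one in 4 of 4 for the mitochondrial genes and in 3 of 4 for Gm29216. In MUT mice it is the lower one in 2 of 5 for the mitochondrial genes and in 4 of 5 for Gm29216.

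The group difference in the share had opposite signs in the first and second libraries. In first libraries the mean share was 0.176% ± 0.0818 in MUT mice and 0.170% ± 0.0647 in WT mice, and in second libraries it was 0.168% ± 0.0384 in MUT mice and 0.239% ± 0.0402 in WT mice. First libraries alone gave 5 of 13 tested genes below 0 and a median log2 fold change of 0.05. Second libraries alone gave 13 of 13 below 0 and a median of -0.52. In the second libraries 5 genes had an unadjusted p under 0.05 in edgeR, as had 9.64% of tested genes. All 5 were lower in MUT, as were 4.74% of tested genes at that p, and none was called. They were mt-Nd5 (-0.50, SE 0.14, adjusted p = 0.337), mt-Nd4 (-0.55, SE 0.16), mt-Co2 (-0.61, SE 0.22), mt-Cytb (-0.82, SE 0.29) and mt-Nd2 (-0.70, SE 0.27). In the first libraries 1 gene had one (either direction, 8.72% of tested genes), mt-Rnr2, at 0.51 (SE 0.20, adjusted p = 0.504). The labels number the libraries and do not say whether the first and second were made in separate runs.

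Between libraries of a mouse, the mitochondrial genes varied more than nuclear genes of like level. Among the 10 members that averaged 20 CPM or more, the median absolute log2 ratio of first to second library had a median of 0.49 over the genes. For 2786 other tested genes in the same range, from 45.2 to 475 CPM, it was 0.16, and 9 of the 10 members were above the 90th percentile of those genes (0.28). The standard errors of the MUT over WT fold change differed in the same way, with a median of 0.35 in the 10 members and 0.10 in the other genes. These medians were compared as descriptions, with no test.

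The libraries also differed gene by gene and not by a single factor. In MUT 10, whose libraries had similar shares of mitochondrial counts, the log2 ratio of first to second library was -1.57 for mt-Co3, 0.51 for mt-Nd1 and 0.43 for mt-Cytb. In WT 2 it was -1.26 for mt-Co3 and 0.42 for mt-Atp6. In MUT 7 it was -2.28 for mt-Nd2, -2.27 for mt-Co3 and -2.13 for mt-Co2, while mt-Rnr2 had 0.18. A chi-square statistic per degree of freedom, which is near 1 where independent molecules are sampled alike, ranged over mice from 5.30 to 145 for the 10 members (median 72.7) and from 8.99 to 58.3 for the other genes of like level (median 23.6). Without molecular identifiers reads are not independent molecules, and whether these were used is not stated, so the statistic can exceed 1 through copies made by PCR.

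Nuclear genes that serve the same complexes were mostly above 0 where the mitochondrial genes were below it, with none called on either side. Of the nuclear subunits of complex I, 27 of 36 tested were above 0 (median 0.06), and 3 had an unadjusted p under 0.05, a share close to the 9.85% of all tested genes. These were Ndufv1, which carries the NADH-binding site (log2 fold change 0.25, SE 0.08), Ndufa9 (0.19, SE 0.07) and Ndufa10 (0.20, SE 0.08). For complex III, 8 of 9 were above 0 (median 0.08) and none had such a p, led by Uqcrc1 (0.20, SE 0.09), the Rieske iron-sulfur protein gene Uqcrfs1 (0.20, SE 0.11) and Uqcrq (0.10, SE 0.10). For complex IV, 9 of 12 were above 0 (median 0.10) and 1 had an unadjusted p under 0.05, with Cox6c at 0.41 (SE 0.17), Cox7b at 0.46 (SE 0.31) and Cox8a at -0.15 (SE 0.09). For ATP synthase, 12 of 16 were above 0 (median 0.09) and 1 had such a p, with Atp5a1, the alpha subunit gene, at 0.27 (SE 0.09), Atp5c1 at 0.18 (SE 0.10) and Atp5f1 at -0.18 (SE 0.10). The difference between the mitochondrial and the nuclear genes was not tested. Of all tested genes, 48.3% were below 0. The median of the mitochondrial genes was 0.05 in first libraries alone and 0.0056 with the log2 total count as a covariate. The nuclear lists were not examined in these settings.

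**Figure D5:**
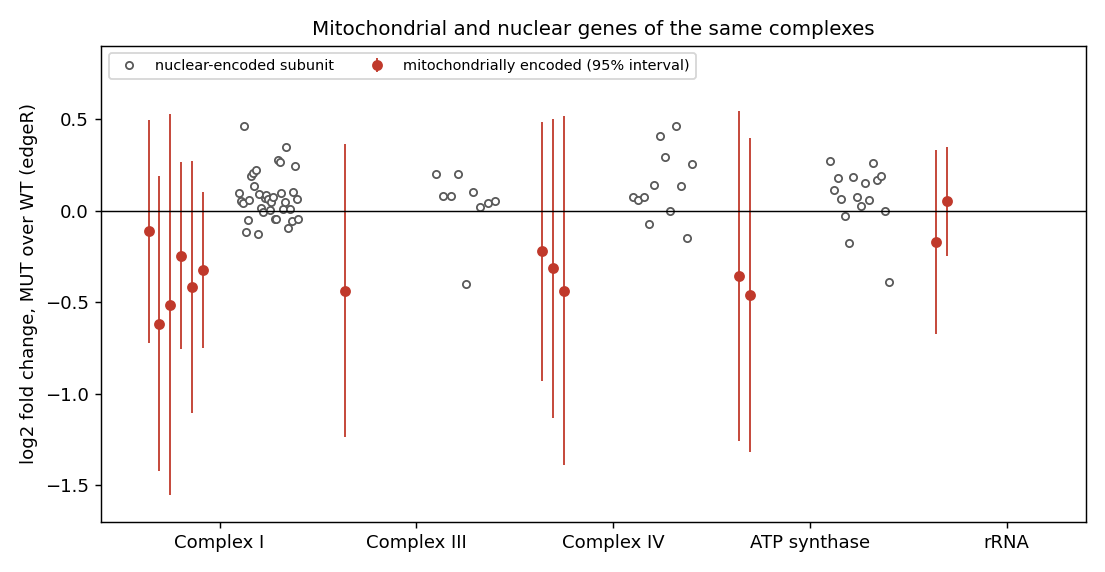
Log2 fold changes, MUT over WT (y axis), are drawn by complex for mitochondrially encoded genes (filled, with 95% intervals) and for nuclear-encoded subunits (open). The interval of each mitochondrial gene spans 0, from mt-Nd2 at -0.62 to mt-Rnr2 at 0.05.

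Genes that copy, transcribe and process the mitochondrial genome were close to 0. Of 37 tested, 25 were above 0 (median 0.05), and none had an unadjusted p under 0.05. The lowest p belonged to Fastkd5, which acts in the processing of mitochondrial transcripts, with 7.54 ± 0.91 CPM in MUT mice and 6.05 ± 0.82 CPM in WT mice (0.31, SE 0.15, edgeR adjusted p = 0.509). The polymerase gene Polrmt had 0.18 (SE 0.11) and the exonuclease gene Rexo2 0.22 (SE 0.13). Of 13 mitochondrial translation factors, 10 were above 0 (median 0.11) and 2 had an unadjusted p under 0.05 (9.85% of all tested genes). Gfm1, a mitochondrial elongation factor, had 37.7, 46.7, 36.8, 42.1 and 42.7 CPM in MUT mice, each above the 31.7, 31.8, 32.0 and 33.7 CPM of the WT mice (0.35, SE 0.09, edgeR adjusted p = 0.254). All MUT mice were above all WT mice in 1.87% of tested genes. Among the nuclear subunits named above, this held for Ndufv1, Ndufa9, Ndufa10 and Atp5a1. The release factor gene Mtrf1 had 0.33 (SE 0.13) and the initiation factor gene Mtif3 0.29 (SE 0.14), and none of these genes was called.

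Total counts per mouse were 15959029 to 25485899 in MUT mice and 11766467 to 16784991 in WT mice, and MUT 7, the mouse with the lowest mitochondrial share, was the deepest. With the log2 total count as a covariate, 6 of the 14 genes were below 0 and their median was 0.0056, and depth and genotype cannot be told apart with these 9 mice. The 50 most counted genes took 26.1% to 27.6% of counts in MUT mice and 25.6% to 29.0% in WT mice. Of 5 RNAs kept in the nucleus, 4 were tested, 1 was above 0 and 3 below (median log2 fold change -0.23). Malat1 had 113 to 180.3 CPM in MUT mice and 114 to 229 CPM in WT mice, and Neat1 averaged 30.5 ± 3.51 CPM in MUT mice and 45.1 ± 10.7 CPM in WT mice (-0.56, SE 0.15, edgeR adjusted p = 0.254). Snhg11, the one above 0, averaged 7.09 ± 0.89 CPM in MUT mice and 5.45 ± 0.92 CPM in WT mice (0.38, SE 0.16). Neat1 and Snhg11 each had an unadjusted edgeR p under 0.05 (9.85% of all tested genes), and neither was called.

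The sorted cells expressed 12 of 12 myeloid progenitor markers, at a summed 9128 to 17545 CPM in MUT mice and 9846 to 11713 CPM in WT mice, with 5 above 0 and 7 below. None was called, and 1 higher and 1 lower had an unadjusted edgeR p under 0.05 (9.85% of all tested genes). Ctsg averaged 4564 ± 1760 CPM in MUT mice and 2997 ± 525 CPM in WT mice (0.61, SE 0.25). This gene alone had 2673 to 6450 CPM in MUT mice and 2277 to 3482 CPM in WT mice. The summed CPM of this split list therefore does not describe its 12 markers. Kit averaged 19.0 ± 2.45 and 25.6 ± 1.99 CPM (-0.43, SE 0.11). It was lower in each MUT mouse than in each WT mouse (2.13% of tested genes). All 7 tested of 10 erythroid markers were above 0 (median 0.88), with sums of 17.7 to 61.4 CPM in MUT mice and 6.81 to 53.0 CPM in WT mice and none at 0 throughout. Of these, 3 had an unadjusted p under 0.05 (9.85% of all tested genes) and none was called. Car1 and Car2, carbonic anhydrase genes, were higher in each MUT mouse than in each WT mouse (1.87% of tested genes). They had 2.40 ± 1.08 and 3.27 ± 0.52 CPM in MUT mice and 0.237 ± 0.400 and 0.755 ± 0.582 CPM in WT mice. These levels are near the floor, with 0, 14, 0 and 2 counts of Car1 and 3, 26, 6 and 14 of Car2 in WT mice 1 to 4. The 10 mature neutrophil markers were split, with 5 above and 5 below 0 (median 0.04), so their sums of 228 to 472 CPM in MUT mice and 453 to 973 CPM in WT mice do not describe the list. Camp, a secondary granule gene, averaged 139 ± 47.7 CPM in MUT mice and 386 ± 129 CPM in WT mice, whereas Ltf, another, averaged 13.5 ± 4.43 CPM in MUT mice and 4.82 ± 3.67 CPM in WT mice. Of 5 tested mast cell and megakaryocyte markers, 3 were below 0, and the integrin gene Itga2b was called lower, at 0.670 ± 0.240 CPM in MUT mice and 2.48 ± 0.448 CPM in WT mice (log2 fold change -1.90, SE 0.30, edgeR adjusted p = 0.0427). It had 7 to 17 counts in each MUT mouse and 34 to 39 in each WT mouse. With MUT 7, 8, 10 or 12, or WT 3 or 4, left out singly, no gene was called, Itga2b included. The same held with the log2 total count as a covariate. The monocyte and macrophage markers (3 of 6 tested above 0), the stromal and endothelial markers (1 of 3) and the B, T and NK cell markers (1 of 2) had no called gene. Among the first of these lists, Adgre1 averaged 27.8 ± 3.64 CPM in MUT mice and 40.1 ± 4.92 CPM in WT mice (-0.53, SE 0.12, edgeR adjusted p = 0.176). Each MUT mouse was below each WT mouse, as in 2.13% of tested genes. The part of depth or of other cell types in the mitochondrial values was not tested beyond the covariate.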

How the data were processed

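The authors deposited 1 table of estimated counts, not normalized, of 54347 gene IDs in 18 libraries. Salmon 1.3, bcl2fastq, FastQC and the GRCm38 build appear in the submitters' processing notes. The transcript set, strand setting and use of molecular identifiers are not stated in the sources used here. The first 18 characters of each ID were matched to GENCODE mouse release 21, which named 54094 IDs. Estimated counts were added over the libraries of a mouse, then rounded. The 5 MUT and 4 WT mice were compared by the quasi-likelihood test of edgeR 4.0.16 (R 4.3.3) with TMM factors, a filterByExpr minimum of 10 counts, no covariate and Benjamini-Hochberg adjustment over 12973 genes. CPM values use TMM factors, fold changes are MUT over WT, SE is the log2 coefficient over the square root of F, and p-values are 2-sided. Libraries held 3825500 to 15071673 counts. Nuclear copies were found with blastn 2.17.0 (at least 85% identity, 150 aligned bases and 90% of the copy). Every tested member is named. Of the nuclear subunit, mitochondrial genome expression and translation factor lists, the 3 genes with the lowest p are named. The cell type marker and nuclear RNA lists are given by counts, with only a selection of their genes named. Members and lists were chosen with earlier results of these data known. Alternatives were DESeq2 1.42.0, limma 3.58.1, other scalings, filters and subsets of libraries.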

Additional observations from a re-analysis of the deposited data

Results flagged for a closer look

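MUT 7 stood apart from the other 4 MUT mice in 3 of the 42 sets of values examined over both groups. The criterion sets a sample apart in about 1 in 20 independent sets by chance, but these sets share mice and their genes vary together, so the count cannot be read against that rate. It had 82.3 CPM of mt-Nd1 and 58.5 CPM of mt-Cytb, each far below the other MUT mice, and 8.91% of its mitochondrial counts were in rRNA, above them. Both of its libraries had the lowest mitochondrial share among the MUT libraries of their number.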

How the results depend on the processing

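No mitochondrial gene was called in any of the 24 settings tried, in which 0 to 86 of all genes were called, and the lowest adjusted p of a member was 0.316, without MUT 12. Of 323 log2 fold changes of single genes under alternatives, 297 kept their sign and 26 did not, and the cause was not tested. In first libraries alone the sign turned for mt-Nd1 (0.21), mt-Co1 (0.28), mt-Co2 (0.086), mt-Atp6 (0.016), mt-Nd4 (0.22), mt-Nd5 (0.064), mt-Cytb (0.049) and Gm29216 (0.26), and the share difference was 0.00600 percentage points. It turned for mt-Rnr2 in second libraries (-0.25) and for Gm29216 with 18 libraries and the mouse as a random effect (0.038). With log2 total count as a covariate it turned for mt-Rnr1 (0.12), mt-Nd1 (0.0041), mt-Co2 (0.067), mt-Atp8 (0.0071), mt-Atp6 (0.11), mt-Nd3 (0.31) and mt-Nd4 (0.0074). Leaving out each mouse in turn gave -0.25 to 0.081 for mt-Nd1, -0.43 to 0.059 for mt-Co1, -0.32 to 0.0081 for mt-Rnr1, -0.034 to 0.14 for mt-Rnr2 and -0.18 to 0.081 for Gm29216, and -0.0562 to -0.0147 percentage points for the share. DESeq2, limma-voom and other scalings gave a median of the members between -0.39 and -0.34. No paired analysis was possible because the groups share no mouse number. For genes under 3 counts in a mouse, such as most tRNA genes, no difference could have been detected at this depth.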
